A study of Homo sapiens and Mus musculus with 10 samples.

Results

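RNA of UFD1s-deficient HEK293T cells deprived of glucose for 24 h (GD) was compared with RNA of wild-type (WT) HEK293T cells after the same treatment, with 1 library a side. HEK293T is a transformed human embryonic kidney line. A transcript entered the comparison when the higher of the 2 libraries held 50 or more reads, which 9608 of 11976 transcripts in the table did. Of these, 424 lie on chromosome 16, 433 on chromosome 7 and 8751 elsewhere, and chromosomes 16 and 7 are described apart because transcripts there were lower across their whole length. The study sequenced ribosomal RNA-depleted RNA in 10 libraries of HEK293T and mouse N2a cells. The 4 libraries of its genotype set are UFD1s-deficient GD, WT GD, UFD1s-deficient mock and WT mock, all HEK293T. A separate stress set holds another WT GD and another WT mock library of HEK293T, used here as a further look at WT cells. The labels do not say how UFD1s was removed, whether the deficient line is 1 clone or a pool, or whether each library is a culture of its own. Each condition of the set has 1 library, so the GD difference has no replicate check and no p-value. Intervals given with folds cover the error of counting reads only.

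UFD1 and NPLOC4 form the adaptor that brings ubiquitinated proteins to VCP (p97), an ATPase that unfolds them or pulls them out of membranes and complexes. The best known task of the trio is degradation of misfolded proteins of the endoplasmic reticulum (ER) by the proteasome. Loss of glucose starves the glycosylation and energy supply of the ER, and cells answer with the unfolded protein response and the integrated stress response.

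UFD1 itself was counted on transcript NM_005659.6. It had 193 reads in UFD1s-deficient GD, against 107 in WT GD, and 199 in UFD1s-deficient mock, against 168 in WT mock. The GD ratio was 1.73-fold (95% counting interval 1.36 to 2.21). The sources used here do not say whether this transcript row covers the part of UFD1 missing in the deficient line, so the count checks nothing about the genotype. NPLOC4 had 4550 reads in UFD1s-deficient GD and 3664 in WT GD, a log2 ratio of 0.25. VCP had 8286 and 7178, a log2 ratio of 0.14. Of 20 genes of p97 and its cofactors with 50 reads, 0 differed by 2-fold either way, and their median log2 ratio was 0.13, against −0.00134 over all 9608 transcripts. The 28 measured proteasome genes likewise gave 0 past 2-fold, with a median of 0.0783.

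Reads assigned to transcripts came to 11912659 in UFD1s-deficient GD, 11461365 in WT GD, 13110714 in UFD1s-deficient mock and 12379960 in WT mock. The stress-set WT GD library held 12771607. Among markers of the HEK293 line, 6 of 9 had 50 reads, including the intermediate filaments VIM (13233 reads in UFD1s-deficient GD, 14476 in WT GD) and NEFL (2142 and 1407). Their median log2 ratio was −0.00169, and the keratin KRT8 was the only one past 2-fold, with 32 and 77 reads. Of 20 markers of other cell types, 4 had a row in the table. MBP had 354 reads in UFD1s-deficient GD and 396 in WT GD, VWF 64 and 31, LUM 30 and 10, and PDGFRB 17 and 7.

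Most transcripts were close between the genotypes under GD. The log2 ratio of CPM (counts scaled to library size with TMM factors, with a prior count of 5) lay within 1.5-fold of equality for 88.2% of the 9608. At least 2-fold higher in UFD1s-deficient GD were 130 transcripts (1.35%), and at least 2-fold lower were 133 (1.38%). Outside chromosomes 16 and 7 the counts were 128 higher (1.46%) and 86 lower (0.983%). A difference of 4-fold or more was seen for 27 transcripts in the higher direction and 8 in the lower. For 54 of the 130 and 39 of the 133, the whole counting interval lay beyond 2-fold, and 76 and 65 of them had under 100 reads in the higher library. Transcripts just inside the limit, with 50 to 54 reads, had a median log2 ratio of −0.06 over 251. Those just outside it, with 45 to 49 reads, had 0.03 over 271.

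The mock pair comes from the same lines and shares no library with the GD pair. In it, 151 of 10121 transcripts were at least 2-fold higher in UFD1s-deficient cells (1.49%) and 125 at least 2-fold lower (1.24%). Of the 130 transcripts higher in GD, 111 were above 0 in mock, and 49 passed 2-fold in both pairs, 37.7% of the GD list and 32.5% of the mock list. Of the 133 lower in GD, 119 were below 0 in mock, and 36 passed in both, 27.1% of the GD list and 28.8% of the mock list. Outside chromosomes 16 and 7, 109 of the 128 higher were above 0 in mock, and 48 passed in both. There, 76 of the 86 lower were below 0 in mock, and 22 passed in both. The median mock log2 ratio was 0.01 over all 9608 transcripts and 0.04 over those outside these chromosomes. As a description across 9356 transcripts with 50 reads in both pairs, which are not independent of each other, Pearson's r between the GD and mock ratios was 0.617. Over the 4312 transcripts with 500 reads it was 0.816. Without chromosomes 16 and 7 it was 0.572 over 8516 transcripts with 50 reads and 0.755 over 3925 with 500 reads.

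**Figure D1:**
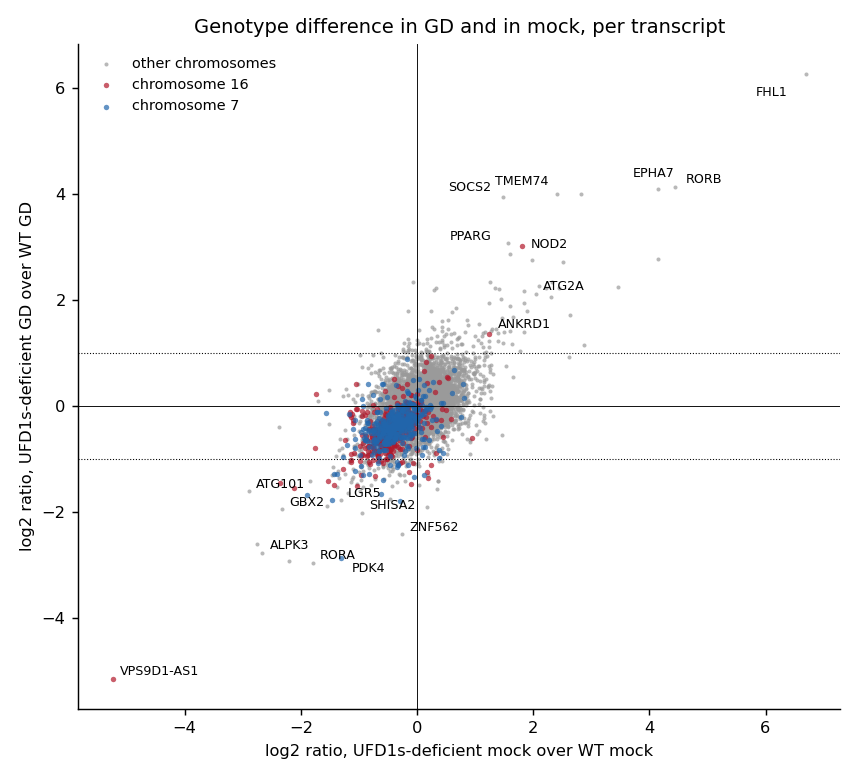
Each point is a transcript with 50 or more reads in the higher GD library. The vertical axis is the log2 ratio of UFD1s-deficient GD over WT GD and the horizontal axis that of UFD1s-deficient mock over WT mock, with chromosomes 16 and 7 in colour and dotted lines at 2-fold in GD. FHL1 stands at the upper right end at 6.26 in GD and VPS9D1-AS1 at the lower left end at −5.14, and most points of chromosomes 16 and 7 lie below 0 on both axes.

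The transcript with the highest ratio was FHL1, which encodes a LIM-domain protein of muscle and the cytoskeleton. It had 2155 reads in UFD1s-deficient GD, against 22 in WT GD, and 1720 reads in UFD1s-deficient mock, against 11 in WT mock. The difference was 93.7-fold in GD (95% counting interval 61.7 to 150) and 149-fold in mock, so both deficient libraries lay far above both WT libraries of the genotype set. These counts are of a single transcript of FHL1, for which the stress set gave no value.

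Next came transcripts that were nearly unread in the WT libraries of the genotype set. RORB, an orphan nuclear receptor, had 85 reads in UFD1s-deficient GD and 106 in UFD1s-deficient mock, against 0 in both WT libraries of the set. Against a floor of 3 counts per library it was at least 27.1-fold higher in GD and at least 33.7-fold in mock. EPHA7, a receptor tyrosine kinase for ephrins, had 82 reads in UFD1s-deficient GD and 0 in WT GD, at least 26.1-fold higher, with 234 and 8 in mock. For both, each deficient library exceeded every WT library in scaled reads. The stress-set WT GD library held 4 reads of RORB and 18 of EPHA7, and the stress-set WT mock library 4 and 42.

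TMEM74, a lysosomal membrane protein linked to autophagy, had 212 reads in UFD1s-deficient GD and 8 in WT GD, 25.3-fold higher (95% counting interval 12.6 to 59.5), with 272 and 45 in mock. RAB39A, a small GTPase of vesicle traffic, had 123 and 13 reads in GD and 142 and 3 in mock. The GABA-A receptor subunits GABRQ and GABRA3 were higher as well. GABRQ had 243 reads in UFD1s-deficient GD and 31 in WT GD, 7.50-fold higher, and 312 and 48 in mock. GABRA3 had 106 and 16 in GD, 6.34-fold higher, and 210 and 36 in mock. In these 4 genes too, both deficient libraries exceeded every WT library of both sets.

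Some differences were larger in GD than in mock. TMEM74 was among them, its GD ratio exceeding its mock ratio by 1.61 on the log2 scale (counting SE 0.555). SOCS2, which restrains cytokine receptor signalling, had 74 reads in UFD1s-deficient GD and 0 in WT GD, at least 23.6-fold higher, but 12 and 1 in mock. PPARG, the nuclear receptor of fat cell differentiation, had 73 reads in UFD1s-deficient GD and 4 in WT GD, 17.5-fold higher (95% counting interval 6.53 to 65.8), with 10 and 0 in mock. RBP4, the plasma carrier of retinol, had 171 and 18 reads in GD, 9.09-fold higher, and 42 and 10 in mock. Within the deficient line SOCS2, PPARG and RBP4 stood 7.10-fold, 8.41-fold and 4.69-fold above mock in GD. The mock counts behind these ratios are small, and the excess of the GD ratio over the mock ratio was about its counting error for SOCS2 (2.48 on the log2 scale, counting SE 2.40) and below it for PPARG (1.51, SE 2.20). For RBP4 it was 1.29 (SE 0.610). ATP4B, a subunit of the gastric proton pump, had 72 reads in UFD1s-deficient GD and 6 in WT GD, with 15 and 0 in mock. Its excess of 0.79 (SE 2.16) was below the counting error. In scaled reads the UFD1s-deficient mock library was, for this gene, below the stress-set WT mock library.

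Few of the 130 higher transcripts were abundant, and 6 of them had 500 or more reads. They are FHL1, ATG2A, CA2, GALNT13, TRIM58 and ANKRD1. GALNT13, TRIM58 and ANKRD1 fall outside the rule by which genes were named and were chosen after their values were seen. ATG2A, a lipid transfer protein that feeds the growing autophagosome membrane, had 6055 reads in UFD1s-deficient GD and 1328 in WT GD, 4.36-fold higher (95% counting interval 4.11 to 4.63). In mock it had 8134 and 1876 reads, and the stress-set WT GD library held 688, so the deficient libraries were above all WT libraries. CA2, a carbonic anhydrase, had 568 and 109 reads in GD, 4.98-fold higher (4.05 to 6.18), and 842 and 184 in mock. GALNT13, which starts O-linked glycans, had 834 and 294 reads in GD, a log2 ratio of 1.43, and TRIM58, a ubiquitin ligase, had 1254 and 457, a log2 ratio of 1.38.

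ANKRD1, an ankyrin repeat protein of nucleus and sarcomere that is a textbook target of the YAP and TEAD transcription factors, was the most abundant transcript past 2-fold. It had 55735 reads in UFD1s-deficient GD, against 19975 in WT GD, and 7718 in UFD1s-deficient mock, against 3041 in WT mock. It was 2.67-fold higher in GD (95% counting interval 2.63 to 2.71) and 2.42-fold in mock. In scaled reads GD stood 8.32-fold above mock in the deficient line and 7.53-fold in WT. The stress-set WT GD library held 3550 reads (329 CPM) and the stress-set WT mock library 3666 (233 CPM). Over shared transcripts the log2 ratio of WT GD in the genotype set over WT GD in the stress set was 2.46. That spread between WT libraries exceeded the difference between genotypes in GD, a log2 ratio of 1.42. CTGF and CYR61, secreted matricellular proteins that share the regulation by YAP and TEAD, differed less between the genotypes in GD than in mock. CTGF had 25274 reads in UFD1s-deficient GD and 18992 in WT GD, a log2 ratio of 0.35, against 1.07 in mock. CYR61 had 26626 and 19368, a log2 ratio of 0.39, against 1.23 in mock. Of 15 measured YAP and TEAD target genes, a list added after values were seen, ANKRD1 alone was past 2-fold. The median was 0.19 in GD and 0.46 in mock.

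The RefSeq promoters of ANKRD1 and CTGF are printed because these are the most abundant transcripts of that list with an entry in the promoter table. Each stretch holds the 250 bases before the gene start on GRCh38.p14, both from the minus strand, chr10:90921088-90921337 for ANKRD1 and chr6:131951373-131951622 for CTGF (CCN2 in RefSeq). Capitals mark the TEAD motif, searched as GGAATG and, on the other strand, CATTCC, with no overlap between matches. ANKRD1 holds 2 matches and CTGF holds 3, and 11.9% of 35116 promoters of the same length hold at least 1. A match describes the letters of the window and is not a measured binding site.
ANKRD1: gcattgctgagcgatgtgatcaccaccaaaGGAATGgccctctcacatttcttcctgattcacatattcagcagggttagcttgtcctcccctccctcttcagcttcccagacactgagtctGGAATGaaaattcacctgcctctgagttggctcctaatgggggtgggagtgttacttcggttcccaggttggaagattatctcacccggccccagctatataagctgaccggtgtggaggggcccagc
CTGF: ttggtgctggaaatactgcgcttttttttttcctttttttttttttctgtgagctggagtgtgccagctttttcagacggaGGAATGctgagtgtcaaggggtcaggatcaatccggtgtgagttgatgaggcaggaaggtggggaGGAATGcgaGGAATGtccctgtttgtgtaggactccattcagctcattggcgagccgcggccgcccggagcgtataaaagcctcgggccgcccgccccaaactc

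**Figure D2:**
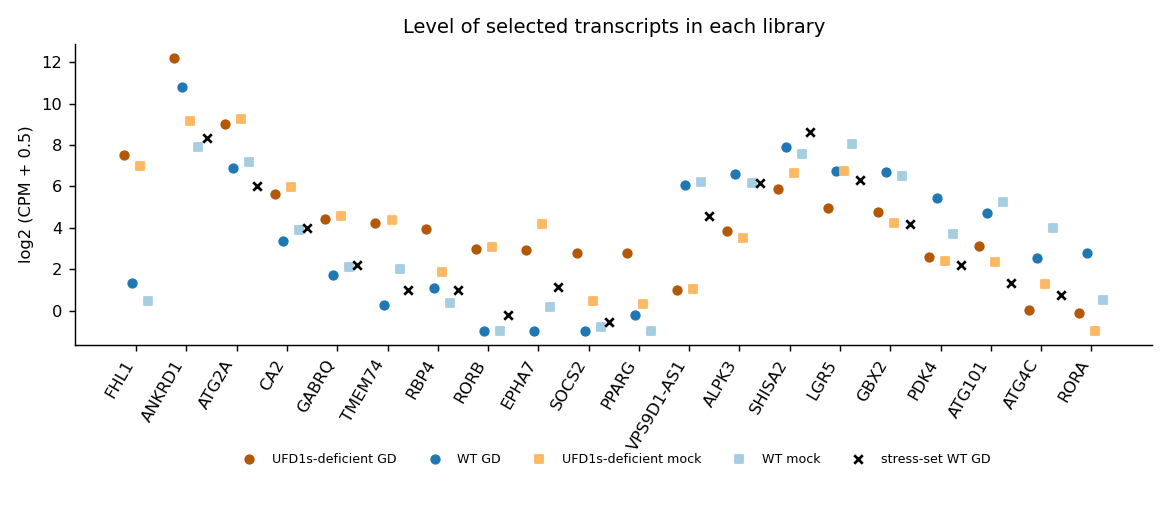
Level of 20 transcripts in each HEK293T library as log2 of TMM-scaled CPM plus 0.5. Filled circles are GD libraries and squares mock libraries, UFD1s-deficient in orange and WT in blue, and crosses are the stress-set WT GD library where its table holds the same transcript. For FHL1 the deficient libraries had 2155 and 1720 reads and the WT libraries 22 and 11, while for PDK4, GBX2 and ATG101 the stress-set WT GD library lies below the UFD1s-deficient GD library.

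The lowest ratio belonged to VPS9D1-AS1, a noncoding RNA on chromosome 16 antisense to VPS9D1. It had 17 reads in UFD1s-deficient GD, against 741 in WT GD, and 21 in UFD1s-deficient mock, against 931 in WT mock. It was 45.6-fold lower in GD (95% counting interval 28.3 to 78.7), and the stress-set WT GD library held 248 reads, also far above both deficient libraries. Its partner VPS9D1 had 211 and 272 reads in GD, a log2 ratio of −0.42. Use of strand in the counting is not given in the sources used here, so reads where the genes overlap cannot be told apart.

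Outside chromosomes 16 and 7, ALPK3, a kinase known from heart muscle, had 159 reads in UFD1s-deficient GD and 1065 in WT GD, 7.0-fold lower (95% counting interval 5.92 to 8.33). Its mock counts were 148 and 917, and the stress-set WT GD library held 771. SHISA2, an ER protein that holds back Wnt and FGF receptors, had 685 and 2659 reads in GD, 4.06-fold lower (3.73 to 4.42), and 1325 and 2448 in mock. Both genes were lower in the deficient libraries than in every WT library of both sets. LGR5, the R-spondin receptor that strengthens Wnt signalling, had 361 reads in UFD1s-deficient GD and 1196 in WT GD, 3.46-fold lower, and 1428 and 3381 in mock. SCARA5, a ferritin receptor, had 8 and 90 reads in GD and 23 and 119 in mock, with 233 in the stress-set WT GD library.

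For GBX2 and ATG101 the direction depended on which WT library was used. GBX2, a homeobox factor of the early hindbrain, had 312 reads in UFD1s-deficient GD and 1164 in WT GD, 3.90-fold lower, and 242 and 1170 in mock. The stress-set WT GD library held 190, below the deficient line. ATG101, a subunit of the ULK1 complex that starts autophagy, had 94 and 284 reads in GD, 3.16-fold lower, and 62 and 471 in mock, but 22 in the stress-set WT GD library. ATG4C, a protease that processes LC3 family proteins, had 6 and 60 reads in GD, 10.5-fold lower, and 26 and 196 in mock, with 13 in the stress-set WT GD library. The nuclear receptor RORA, with no stress-set value of the same transcript here, had 5 reads in UFD1s-deficient GD and 70 in WT GD, 14.6-fold lower, with 0 and 12 in mock.

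Other transcripts were low in GD alone. ZNF562, a zinc finger gene, had 6 reads in UFD1s-deficient GD and 52 in WT GD, 9.06-fold lower, but 38 and 44 in mock. LINC00467, a long noncoding RNA, had 19 and 81 reads in GD and 66 and 55 in mock. DNMT3A, a DNA methyltransferase, had 15 and 52 reads in GD, 3.62-fold lower, and 32 and 23 in mock. Among the abundant transcripts, named after their values were seen, UBQLN1, a ubiquitin shuttle to the proteasome, had 499 and 1161 reads in GD and a log2 ratio of −1.27, with −1.24 in mock. MOSPD1 had 1670 and 3438 reads, a log2 ratio of −1.10, with −0.52 in mock.

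Transcripts of chromosomes 16 and 7 were shifted down as a whole. On chromosome 16 the median log2 ratio of 424 transcripts was −0.42, or 0.746 of the WT level, and 91.7% lay below 0. On chromosome 7 the median of 433 was −0.38, or 0.769 of the WT level, with 89.8% below 0. The median of the 8751 transcripts elsewhere was 0.02, with 46.2% below 0. The next lowest chromosomes were 19 and 12, each at −0.08, and the highest were 22 at 0.12 and 10 at 0.11. The mock pair gave −0.43 for the same transcripts of chromosome 16 and −0.35 for those of chromosome 7. At 2-fold, chromosome 16 had 26 lower (6.13%) and 2 higher (0.472%), and chromosome 7 had 21 lower (4.85%) and 0 higher (0.0%). In the mock pair, 26 transcripts of chromosome 16 (5.8%) and 21 of chromosome 7 (4.46%) were at least 2-fold lower. Neighbouring genes are not independent observations, and no DNA was measured.

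**Figure D3:**
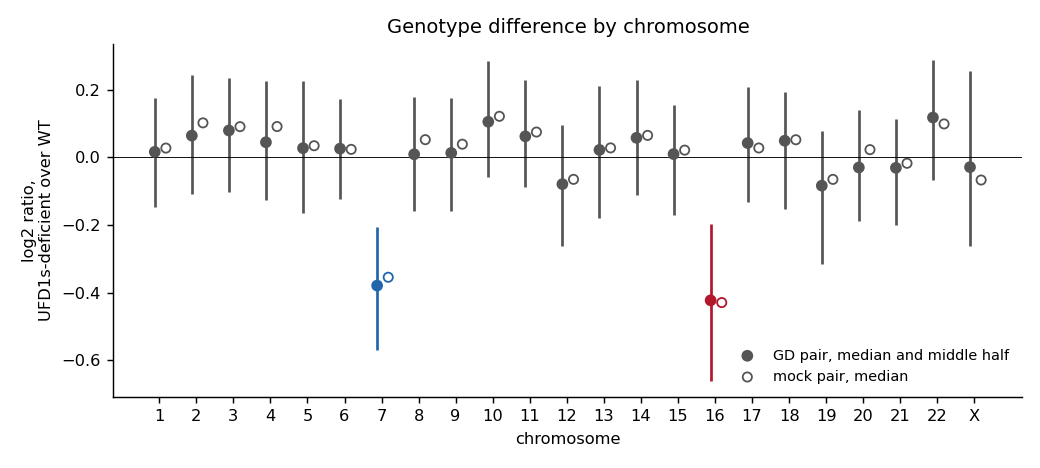
Median log2 ratio of UFD1s-deficient over WT for each chromosome, with filled circles for the GD pair, lines from the lower to the upper quartile, and open circles for the mock pair. Chromosome 16 at −0.42 and chromosome 7 at −0.38 lie below all others, whose GD medians run between −0.08 and 0.12.

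The shift on chromosome 16 was uneven. Divided in gene order into 10 blocks of 42 or 43 transcripts, the first 3 blocks, from POLR3K to CPPED1, had medians of −0.24, −0.18 and −0.23. The blocks from SHISA9 to HSDL1 had medians between −0.40 and −0.56. The last block, from TLDC1 to URAHP, had −0.86 in GD and −0.69 in mock and held 13 of the 26 transcripts at least 2-fold lower. The lowest run of 21 neighbours reached from ZNF469 to SPIRE2, with a median of −0.92 in GD and −0.85 in mock. On chromosome 7 the medians of 10 blocks lay between −0.28 and −0.47, and the lowest run, from ZC3HC1 to KDM7A-DT, had −0.61 in GD and −0.62 in mock. Outside these chromosomes the lowest runs were TMEM259 to TCF3 on chromosome 19 (−0.38 in GD, −0.41 in mock), F2RL1 to ATG10 on chromosome 5 (−0.36) and CCDC92 to POLE on chromosome 12 (−0.36). The highest runs were ESYT3 to C3orf58 on chromosome 3 (0.36) and ABRAXAS2 to KNDC1 on chromosome 10 (0.35). The block and run end genes were named after their values were seen.

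**Figure D4:**
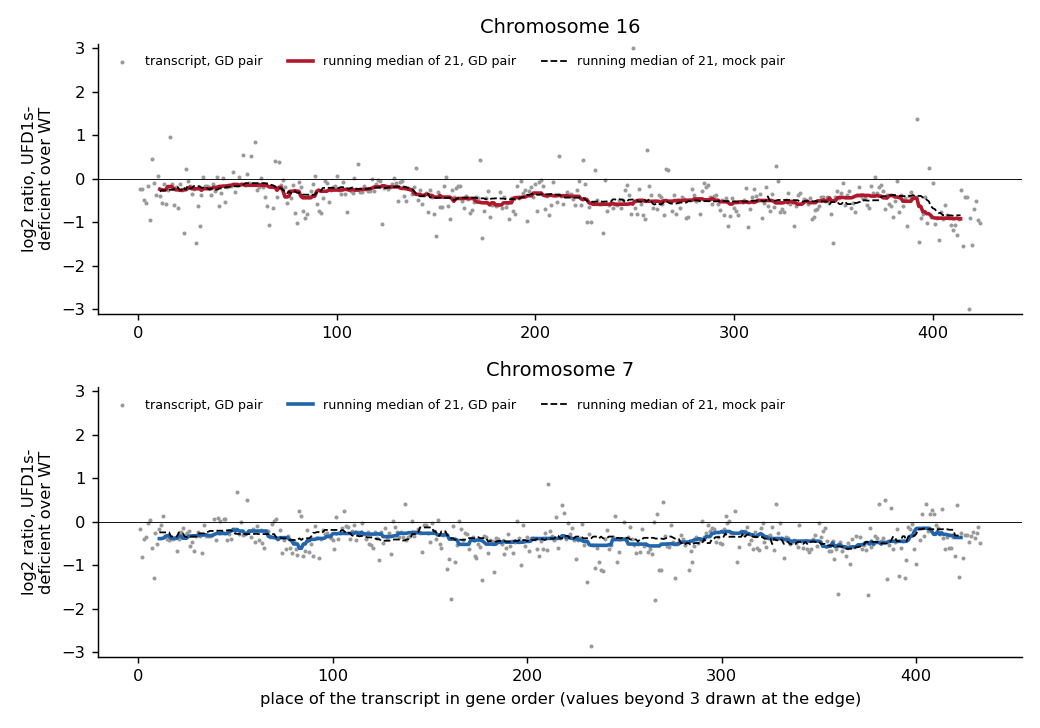
Log2 ratio of UFD1s-deficient over WT for each transcript of chromosome 16 (top) and 7 (bottom) in gene order, with the running median of 21 neighbours as a solid line for GD and a dashed line for mock. On chromosome 16 the line drops to −0.92 at the far end, and on chromosome 7 it stays below 0 throughout.

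With the stress-set WT GD library as the WT side, chromosome 7 had a median of −0.33 over 388 of the compared transcripts that both tables hold, and chromosome 16 had −0.16 over 382. The WT libraries of the sets themselves differed by chromosome. WT GD of the genotype set over WT GD of the stress set gave a median of 0.30 on chromosome 16, 0.09 on chromosome 7, 0.52 on chromosome 19 and 0.31 on chromosome 22. Between these WT GD libraries 13.9% of 8703 transcripts differed by at least 2-fold, against 2.74% between the genotypes within the set. The block pattern also differed with this library. On chromosome 16 the first 2 blocks then had medians of 0.58 and 0.34, the fifth 0.17 and the last −0.19, and the other 6 lay between −0.15 and −0.56. On chromosome 7 the first and seventh blocks had 0.30 and 0.13, and the other 8 lay between −0.25 and −0.68. What part of the chromosome shift comes with the library was not tested.

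Among the lowest coding genes of chromosome 16 were SPATA33 (33 reads in UFD1s-deficient GD, 101 in WT GD), the actin nucleator SPIRE2 (164 and 457) and the forkhead factor FOXF1 (46 and 129). CYBA, the p22phox subunit of NADPH oxidase, chosen after its values were seen, had 253 and 655 reads, a log2 ratio of −1.42, and −1.53 in mock. SOX8, a transcription factor of neural crest and testis, had 48 and 136 reads in GD but 117 and 120 in mock. Only 2 transcripts of chromosome 16 were at least 2-fold higher, against its trend. NOD2, a sensor of bacterial cell wall fragments, had 104 reads in UFD1s-deficient GD and 8 in WT GD, 12.4-fold higher (95% counting interval 6.08 to 29.6), and 42 and 8 in mock. IRF8, an interferon regulatory factor, had 78 and 26 reads in GD, a log2 ratio of 1.36, and 114 and 43 in mock.

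On chromosome 7, PDK4, the kinase that switches off pyruvate dehydrogenase when glucose is scarce, stood lowest. It had 64 reads in UFD1s-deficient GD, against 474 in WT GD, and 64 in UFD1s-deficient mock, against 158 in WT mock. It was 7.74-fold lower in GD (95% counting interval 5.95 to 10.2) and 2.59-fold lower in mock. GD changed its scaled reads 1.15-fold in the deficient line and 3.44-fold in WT of the same set. In the stress set, however, PDK4 was lower in WT GD, with 44 reads (4.08 CPM), than in WT mock, with 181 reads (11.5 CPM). The stress-set WT GD library thus lay below the deficient line, and WT cells of the 2 sets changed in opposite directions under GD. The cohesin subunit STAG3 had 17 and 68 reads in GD and 37 and 44 in mock, and the axon guidance receptor PLXNA4 had 14 and 53 in GD and 55 and 83 in mock. ZNF117, a zinc finger gene, had 57 and 197 reads, a log2 ratio of −1.76, with −1.46 in mock. EN2, a homeobox factor of the midbrain and hindbrain border, had 322 and 752 reads, a log2 ratio of −1.27, with −1.38 in mock.

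For the integrated stress response, ER, DNA replication, developmental and pyruvate dehydrogenase lists, members on chromosomes 16 and 7 are also given apart. Medians given for the other lists take in any members there. Counts of the lists stand beside 1.35% higher and 1.38% lower of all 9608 transcripts. Of 29 integrated stress response genes, targets of the ATF4 programme, 1 was at least 2-fold lower and 0 higher, with a median of −0.25 in GD and −0.07 in mock. The gene past 2-fold was ASNS, asparagine synthetase on chromosome 7, with 218 reads in UFD1s-deficient GD and 457 in WT GD. SLC7A5, a large neutral amino acid transporter on chromosome 16, had 14953 and 26501 reads, a log2 ratio of −0.89, and AARS, alanyl-tRNA synthetase on chromosome 16, had 4912 and 8646, a log2 ratio of −0.88. The 4 members on chromosomes 16 and 7 had a median of −0.88. The other 25 had −0.17, with 18 below 0, among them the stress cytokine GDF15 (57 and 98 reads) and the pseudokinase TRIB3 (2440 and 2877). The ATF4 partner CHOP, encoded by DDIT3, had 136 and 98 reads, a log2 ratio of 0.39.

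Of 28 genes for ER chaperones and ER-associated degradation, 0 passed 2-fold, and 21 lay above 0, with a median of 0.13 in GD and −0.01 in mock. The 4 members on chromosomes 16 and 7 had a median of −0.20 in GD and the other 24 one of 0.15. HSPA5, the main ER chaperone BiP, had 43168 reads in UFD1s-deficient GD and 24466 in WT GD, 1.69-fold higher (95% counting interval 1.66 to 1.71), against 1.09-fold in mock. In GD, HSPA5 stood 5.13-fold above mock in the deficient line and 3.33-fold in WT. XBP1, a transcription factor of the unfolded protein response, had 132 and 65 reads in GD, 1.94-fold higher (1.43 to 2.66), and 30 and 33 in mock. The stress-set WT GD library stood above both for HSPA5, since over shared transcripts the log2 ratio of WT GD in the genotype set over WT GD in the stress set was −1.91. That spread between WT libraries exceeded the difference between genotypes.

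Autophagy genes went both ways. Of 29 measured, ATG2A, AMBRA1 and RB1CC1 were at least 2-fold higher and ATG4C and ATG101 at least 2-fold lower, and the median was 0.06. AMBRA1, a scaffold that promotes autophagy initiation, had a log2 ratio of 1.01 in GD and −0.01 in mock. RB1CC1, the FIP200 subunit of the ULK1 complex, had 1.01 in GD and 1.15 in mock. The p97, proteasome, heat shock, glycolysis, fatty acid synthesis, DNA replication, G2 and mitosis, p53 and respiratory chain lists had 0 members past 2-fold. In DNA replication the 5 members on chromosomes 16 and 7 had a median of −0.55 and the other 21 one of −0.07. The lowest was the licensing factor CDT1 on chromosome 16, with 3034 reads in UFD1s-deficient GD and 5423 in WT GD.

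Extracellular matrix and NF-kB genes had the highest medians among the 27 lists. Of 27 matrix genes, 21 lay above 0 and the median was 0.35 in GD and 0.15 in mock. COL3A1, a fibrillar collagen, was the member past 2-fold, with 251 reads in UFD1s-deficient GD and 108 in WT GD, 2.22-fold higher, and 514 and 355 in mock. The basement membrane collagens COL4A1 (2735 and 1620 reads) and COL4A2 (3387 and 2097) had log2 ratios of 0.69 and 0.63, against 0.36 and 0.26 in mock. Of 14 interferon and NF-kB genes, 13 lay above 0, with a median of 0.37 in GD and 0.42 in mock, and NOD2 was the member past 2-fold. The viral RNA sensor IFIH1 had 93 and 53 reads in GD, a log2 ratio of 0.70, and the NF-kB inhibitor NFKBIE had 287 and 200, a log2 ratio of 0.45.

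Signalling and developmental genes past 2-fold also went both ways. In the Wnt list of 22, the antagonist DKK1 had 171 reads in UFD1s-deficient GD and 39 in WT GD, 4.19-fold higher (95% counting interval 2.95 to 6.10), and LGR5 was the member past 2-fold in the lower direction. The immediate early factor EGR1 had 170 and 56 reads, 2.90-fold higher, with a log2 ratio of 1.36 in mock. Against the stress-set WT GD library, which held 124 reads of EGR1, the log2 ratio was 0.35. The Notch target HEY1 had 84 and 242 reads, 3.01-fold lower, and was the 1 called of 13. EPHA7, EPHA6 and EPHA10 were higher among 15 Eph receptors and ephrins, and 0 were lower, with a list median of 0.08. Of 36 developmental transcription factors, GATA2 and RORB were higher and GBX2, EN2, RORA and FOXF1 lower, with a median of −0.24. The 7 of them on chromosomes 16 and 7 had −0.84 and the other 29 had −0.18. NFE2L2, the NRF2 factor itself, had 41 and 85 reads, 2.17-fold lower, and was the single member past 2-fold of 17 antioxidant genes. In mock it had 37 and 26 reads, a log2 ratio of 0.38, and against the stress-set WT GD library its ratio was 0.15, so the direction held in neither. Its target HMOX1 had 295 and 146 reads, a log2 ratio of 0.93, the highest of the 17. The median of the 17 was −0.02 in GD and 0.18 in mock, with 9 below 0 and 8 above in GD. SC5D, an enzyme of cholesterol synthesis, had 56 and 14 reads and was the 1 higher of 19.

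**Figure D5:**
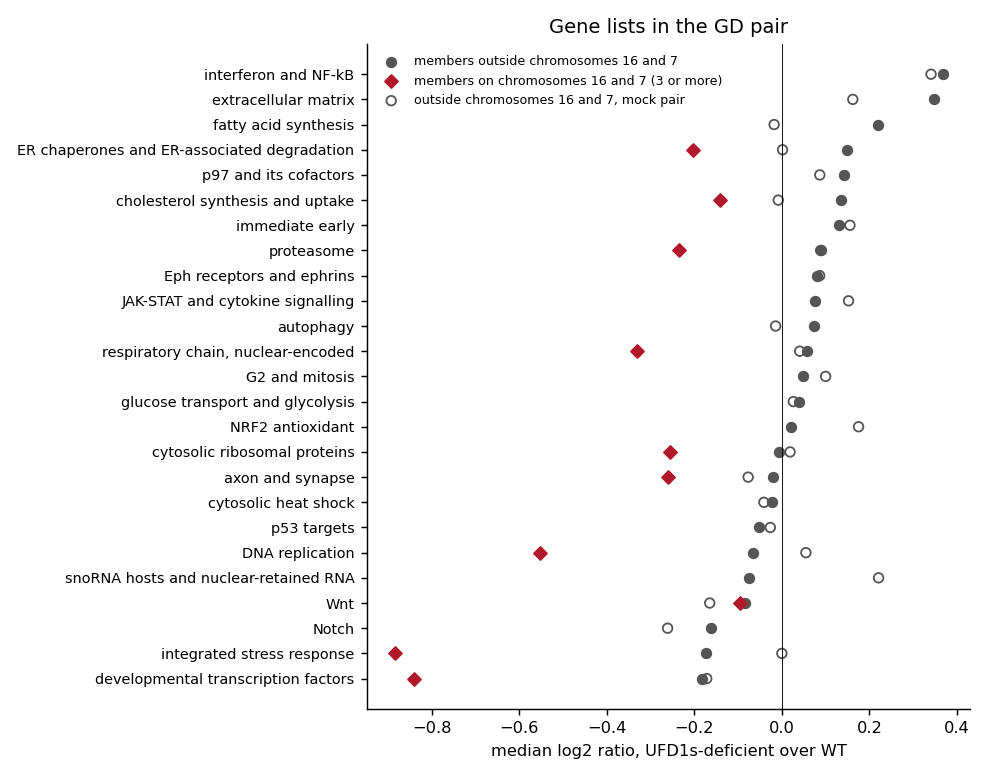
Median log2 ratio of UFD1s-deficient over WT for each gene list with 10 or more measured members, with filled circles for GD outside chromosomes 16 and 7, open circles for mock outside them, and diamonds for GD members on chromosomes 16 and 7, drawn where a list has 3 or more there. Each diamond drawn lies left of the filled circle of the same list, down to −0.88 for the integrated stress response, and the extracellular matrix and NF-kB lists lie furthest right.

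The genotype difference in GD was set against that in mock for 10373 transcripts with 50 reads in the highest of the 4 libraries. The GD ratio was at least 2-fold above the mock ratio for 194 (1.87%) and at least 2-fold below it for 162 (1.56%). Of the 194, 17 lie on chromosome 16 or 7, and of the 162, 26 lie on either of them. For scale, chromosome 16 held 424 and chromosome 7 held 433 of the 9608 transcripts compared in the GD pair. FOXM1, a cell cycle transcription factor, had 16 reads in UFD1s-deficient GD and 29 in WT GD, but 0 in UFD1s-deficient mock and 52 in WT mock. MMP2, a matrix protease on chromosome 16, had 22 and 12 reads in GD and 20 and 84 in mock. CAHM, a noncoding RNA, had 53 and 6 in GD and 34 and 34 in mock, a difference of 2.41 on the log2 scale (counting SE 0.693). In the other direction, GOLM1, a Golgi membrane protein, had 23 and 47 reads in GD and 104 and 31 in mock, a difference of −2.48. PLIN2, which coats lipid droplets, had 14 and 30 in GD and 62 and 25 in mock, and SPHK1, a sphingosine kinase, had 6 and 14 in GD and 60 and 20 in mock. These genes had at most 104 reads in any of the 4 libraries, and with 1 library per condition the difference of the ratios was not tested.

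Against the stress-set WT GD library, 110 of the higher and 114 of the lower transcripts could be looked up by the same transcript. Of the higher, 100 had the same direction and 57 passed 2-fold, where 10.9% of all 8765 shared transcripts did. Of the lower, 93 had the same direction and 52 passed 2-fold, where 5.54% did. These comparisons share the UFD1s-deficient GD library.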

How the data were processed

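Total RNA of HEK293T cells was extracted with TRIzol and made into libraries with the TruSeq Ribo Profile kit, per the labels' protocols. Tools named without versions in the submitters' processing notes are Bowtie2, bedtools, cutadapt and FastQC, with the build hg19. How reads were counted, on which annotation and with which strand setting is not given in the sources used here. Each deposited table gives the authors' unnormalized counts of reads, with 1 RefSeq transcript per symbol, and the lowest row sum in the genotype table is 75. Its deposited ratio and p-value columns were not used.

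Names and chromosomes came from a RefSeq table on GRCh38.p14, matched by accession for 11850 transcripts, by symbol for 83 and by synonym for 30, with 13 unmatched. TMM factors were computed with edgeR 4.0.16 in R 4.3.3 over the 4 genotype-set libraries, and over the 10368 transcripts in both tables where the stress set was used. Log2 ratios used a prior count of 5. A fold is the ratio of scaled counts without a prior, given with its exact conditional 95% interval (Python 3.11.15, scipy 1.17.1), and a fold against 0 reads is a bound against a floor of 3 counts per library. Scripts were tested on simulated data. Alternatives were other scaling, prior counts, read minimums and WT libraries.

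Genes were named by a rule: the 15 highest and 15 lowest ratios outside chromosomes 16 and 7, the 6 highest and lowest on each of these, the 8 largest differences each way between the GD and mock ratios, and up to 4 members of each list past 2-fold, leaving out small RNA, histone, LOC and open reading frame names, plus UFD1, NPLOC4 and VCP. Not every gene the rule names is reported here. List members outside this rule were named as examples after their values were seen. Members and the 27 lists were chosen with earlier results of these data known, and 5 lists were added after values were seen.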

Additional observations from a re-analysis of the deposited data

Results flagged for a closer look

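For 3 transcripts the genotype difference lay in opposite directions in GD and in mock, past 2-fold each way, and the difference between the pairs was not tested. CASP2, a caspase on chromosome 7, had 36 reads in UFD1s-deficient GD and 10 in WT GD, but 24 in UFD1s-deficient mock and 70 in WT mock, so that its GD ratio exceeded its mock ratio by 2.83 on the log2 scale (counting SE 0.608). FOXE1, a forkhead factor of the thyroid, had 40 and 15 reads in GD and 21 and 63 in mock, a difference of 2.57 (counting SE 0.561). TMEM35A, a chaperone of nicotinic acetylcholine receptors, had 8 and 0 reads in GD and 22 and 51 in mock, a difference of 2.47 (counting SE 2.13). Against the stress-set WT GD library, the log2 ratio of UFD1s-deficient GD was −0.76 for TMEM35A, the other direction, 1.03 for CASP2 and 0.12 for FOXE1. All 3 rest on at most 70 reads per library of the genotype set.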

How the results depend on the processing

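Library totals, RLE factors, TMM over transcripts outside chromosomes 16 and 7, and prior counts of 1 or 0.5 kept all counts past 2-fold within 1.5 times the reported ones. They moved small medians only: outside chromosomes 16 and 7 it was 0.0306 with totals, 0.0378 with RLE and 0.00501 with TMM outside those chromosomes (0.0392 in the mock pair), and TMM outside moved chromosome 7 to −0.40. The read minimum set the counts, since fewer or more transcripts were counted. With 20 reads, 274 transcripts were higher and 252 lower, of which 41 lower on chromosome 16, 1 higher and 38 lower on chromosome 7, and 271 higher and 173 lower elsewhere. With no minimum these were 293 and 258, 41, 2 and 39, and 288 and 178. With 100 reads they were 54 and 68, with 1 higher and 17 lower on chromosome 16, 10 lower on chromosome 7, and 53 and 41 elsewhere. At 100 reads, 23 were higher in both pairs, and the GD ratio passed the mock ratio by 2-fold in 62 and fell short of it in 45. With the whole counting interval past 2-fold, 54 were higher and 39 lower, with 1 and 6 on chromosome 16, 7 lower on chromosome 7, and 53 and 26 elsewhere.

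With the stress-set WT GD library, 959 were higher and 486 lower, with 35 and 43 on chromosome 16, 21 and 49 on chromosome 7, and 903 and 394 elsewhere. Over the transcripts with 50 reads in UFD1s-deficient GD or that library, the chromosome 16 median was then −0.20 and that outside both chromosomes −0.00752. PDK4 (0.41), GBX2 (0.61), ATG101 (1.79) and NFE2L2 (0.15) turned round in sign, as did ALPK2 (0.75), TSPAN13 (−0.08), MMP2 (−0.08) and TMEM35A (−0.76), which were not past 2-fold with 50 reads in the GD pair. The cause was not tested, and the sets differ in more than genotype. With 50 reads in the higher library, counting error alone leaves most 2-fold differences with an interval that reaches below 2-fold. No paired analysis was possible because no condition was repeated and the labels carry no replicate numbers.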

Other observations

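Lists added after values were seen describe further genes of the GD pair, in which 1.35% of all 9608 transcripts were at least 2-fold higher and 1.38% lower. Of 4 measured GABA-A receptor subunits, GABRQ, GABRA3 and GABRR2 were at least 2-fold higher in UFD1s-deficient GD, and the fourth, GABRE, had 531 reads in UFD1s-deficient GD and 386 in WT GD, a log2 ratio of 0.39. GABRR2 had 58 and 7 reads in GD and 55 and 19 in mock. Among 18 nuclear receptors, with a median log2 ratio of 0.09 in GD and −0.08 in mock, RORB and PPARG were at least 2-fold higher and RORA at least 2-fold lower. The retinoid receptor RXRA had 2022 and 1794 reads, a log2 ratio of 0.11.

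Of 9 measured genes of prostaglandin synthesis and reception, 3 were at least 2-fold higher and 0 lower, with a median log2 ratio of 0.42 in GD and 0.49 in mock. PTGER3, a prostaglandin E receptor, had 78 reads in UFD1s-deficient GD and 12 in WT GD, 6.22-fold higher (95% counting interval 3.37 to 12.5), and 114 and 16 in mock. PTGS2, the inducible cyclooxygenase, had 75 and 30 reads in GD and 46 and 20 in mock. PTGIS, prostacyclin synthase, had 64 and 24 reads in GD but 28 and 30 in mock. Of 8 genes of pyruvate dehydrogenase and its regulators, PDK4 was the only one past 2-fold. The 4 on chromosomes 16 and 7 had a median of −0.59 and the other 4 one of 0.01. PDK1 had 1090 and 1204 reads, and PDK3 had 5444 and 4963.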
